A study of Mus musculus with 15 samples.

Results

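Heat shock proteins and their J-protein partners were followed in RNA from the femoral midshaft of mice flown on the International Space Station or kept on the ground, with or without surgery on the femur. The members were chosen by name. Every array probe whose accession matched a mouse symbol beginning with Hspa, Hspb, Hspd, Hspe, Hsph, Hsp90, Dnaja, Dnajb or Dnajc was taken, together with Cryab, which encodes αB-crystallin. This gave 73 genes of the 21154 gene symbols that had a probe, on 103 probes. For the 22 genes with several probes, the probe with the highest mean sample signal over the 15 arrays was used. The prefixes also caught Hspbp1, Hspbap1 and Hspb11, which are not small heat shock proteins, and these were kept as their own class. No probe was matched to Hspa1b or Dnajb5, which are not analysed here.

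All 15 mice were male C57BL/6J, labelled as 9 weeks old, and each array holds the RNA of 1 mouse. According to the paper, the labelled age is close to the age at surgery, not at sampling. It places surgery a few days before launch and the killing of the mice several weeks after launch, with the ground groups on a matching schedule. The femora therefore come from mice older than the label, several weeks after surgery in the operated groups. G-Sham (n = 4) and G-Surgery (n = 4) mice stayed on the ground in the same type of flight hardware, and FLT-Sham (n = 4) and FLT-Surgery (n = 3) mice were flown. Surgery was a segmental bone defect in the femur, filled with a graft scaffold, stabilised with a needle and treated with a collagen sponge soaked in saline. Sham mice gave the corresponding stretch of an unoperated femur, although the tissue label of every sample reads callus. On 2-colour arrays the sample was labelled with Cy5 and a commercial pool of mouse cell line RNA with Cy3, with no dye swap. Each value below is the log2 ratio of sample over that pool after the scanner software's dye normalization, and a difference is the mean log2 ratio of the first group less that of the second.

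Chaperones hold unfolded proteins out of aggregates and help them to fold. Small heat shock proteins bind unfolding clients without using ATP, the HSP70 and HSP90 machines fold them through ATP cycles, and J proteins deliver clients to HSP70 and start its ATP hydrolysis. Some chaperones are made at all times, others are induced by heat shock factor 1 under stress. Several small heat shock proteins are also part of the normal program of striated muscle, where they guard the sarcomere and the intermediate filaments.

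The sample channel was dim. Between 22.4% and 38.5% of the probes of an array had a Cy5 signal well above background, and 15.9% to 32.3% of log ratios per array had been set to exactly 0 by the software. The differences of all genes tested had a median of 0.38 for FLT-Sham against G-Sham, -0.35 for FLT-Surgery against G-Surgery, 0.17 for G-Surgery against G-Sham, -0.55 for FLT-Surgery against FLT-Sham and -0.72 for the interaction of spaceflight and surgery. A second loess within each array moved these medians to 0.03, 0.13, -0.04, 0.10 and 0.16. The split of all genes past the cut-off moved with it, from 54 higher and 223 lower to 426 and 33 for FLT-Surgery against G-Surgery, and from 29 and 806 to 218 and 392 for FLT-Surgery against FLT-Sham. For FLT-Sham against G-Sham the split moved from 189 higher and 14 lower to 92 and 36, for G-Surgery against G-Sham from 243 and 41 to 160 and 76, and for the interaction from 25 and 733 to 265 and 154. A member's difference is therefore read beside the median of all genes.

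The tissue was checked against marker lists. All 15 skeletal muscle markers and all 7 slow-twitch muscle markers were measured, and of 12 osteoblast and osteocyte markers 4 (Sp7, Dmp1, Phex and Sost) were above background on no array. The mean log2 ratio of the skeletal muscle markers ran from 6.03 to 8.40 over the 4 G-Sham arrays, from 6.50 to 8.66 in FLT-Sham, from 5.64 to 7.69 in G-Surgery and from 4.05 to 6.92 in FLT-Surgery. The slow-twitch markers lay between 1.54 and 6.36, 3.01 and 6.15, 1.69 and 5.76, and -0.96 and 1.57 in the same order, so FLT-Surgery and FLT-Sham did not overlap in the slow-twitch mean. In RNA of a whole tissue piece, fewer cells of a type and less RNA per cell cannot be told apart.

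Of the 73 members, 30 were well above background on all 15 arrays, 8 on 1 or 2 arrays and 11 on none. The number detected per array was 35 to 48 in G-Sham, 39 to 60 in FLT-Sham, 42 to 48 in G-Surgery and 33 to 39 in FLT-Surgery. The 54 members above background on at least 3 arrays could be tested in some comparison. Of the classes, 6 of 8 small heat shock proteins, 3 of 4 inducible cytosolic chaperones, 4 of 9 constitutive HSP70, HSP90 and HSP110 genes, 5 of 10 endoplasmic reticulum members and 4 of 8 mitochondrial members were detected on all arrays. Of the 21 other Dnajc genes, 6 were detected on all arrays and 6 on none. Hspa1a, the classic heat-inducible HSP70, was above background on no array, so no level of it can be given.

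Promoter sequences are shown for 4 members that passed the cut-off in a comparison below (Hspb6, Hspb7, Dnaja4 and Hspd1) and for Hspb1, which passed in none, since chaperone genes are the textbook targets of heat shock factor 1. The heat shock element was searched on both strands as GAANNTTC or TTCNNGAA, where N is any base. A longer form holds 3 alternating units GAA and TTC, each 2 bases from the next, so it contains the shorter form. The shorter form was in 15.1% of 32544 RefSeq promoter windows of 300 bases and in the windows of 15 of the 58 members that had one. These 58 members had 73 windows, so a member with several had more chances to match. Counts per member are therefore not directly comparable with shares of windows. The longer form was in 0.608% of windows and in those of 4 members, Dnajb6, Hspd1, Hspe1 and Hsph1. The myogenic E-box CAGCTG was in 16.4% of windows and in those of 11 members. The MEF2 site was in 3.16% and, among the members with a window, only in Hspb3, and the CArG box in 1.64% and only Dnajc16. Members without a window, among them Cryab, Hspb2, Hspa8, Hsp90aa1 and Hsp90ab1, were not searched. Below are the 250 bases before the annotated start, 5′ to 3′ on the gene's strand in build GRCm38.p6, with capitals for heat shock elements. Hspd1, the mitochondrial chaperonin, lies at chr1:55087933-55088182 on the minus strand and has the longer form; the window of its neighbour Hspe1, whose annotated span overlaps that of Hspd1, also has it. Hspb1, a small heat shock protein of many tissues, is at chr5:135887669-135887918 (plus strand, 2 elements), and Hspb6, a muscle-rich one, at chr7:30553051-30553300 (plus strand, 1 element). Dnaja4, a J protein, is at chr9:54699309-54699558 (plus strand, 2 elements), and Hspb7, the cardiovascular small heat shock protein, at chr4:141420529-141420778 (plus strand, no element in these letters). A match or its absence is a description of these letters only.
Hspd1: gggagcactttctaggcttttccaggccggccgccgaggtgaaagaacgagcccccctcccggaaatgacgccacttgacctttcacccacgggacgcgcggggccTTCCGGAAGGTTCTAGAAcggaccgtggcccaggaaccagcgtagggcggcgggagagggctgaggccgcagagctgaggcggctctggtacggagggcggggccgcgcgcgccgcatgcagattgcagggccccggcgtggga
Hspb1: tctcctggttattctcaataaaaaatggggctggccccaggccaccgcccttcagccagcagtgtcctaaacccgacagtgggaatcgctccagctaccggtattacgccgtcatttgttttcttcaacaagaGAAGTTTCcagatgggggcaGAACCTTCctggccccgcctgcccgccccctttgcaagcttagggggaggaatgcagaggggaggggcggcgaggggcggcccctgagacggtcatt
Hspb6: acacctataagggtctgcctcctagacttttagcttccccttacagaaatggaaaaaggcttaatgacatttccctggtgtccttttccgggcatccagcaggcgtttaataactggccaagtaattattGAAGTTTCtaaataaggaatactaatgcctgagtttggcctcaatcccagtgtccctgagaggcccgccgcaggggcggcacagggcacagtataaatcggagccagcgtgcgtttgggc
Dnaja4: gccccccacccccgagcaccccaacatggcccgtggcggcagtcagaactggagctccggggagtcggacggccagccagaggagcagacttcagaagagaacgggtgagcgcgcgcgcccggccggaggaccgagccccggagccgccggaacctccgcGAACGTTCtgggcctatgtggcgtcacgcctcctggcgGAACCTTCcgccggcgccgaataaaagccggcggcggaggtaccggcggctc
Hspb7: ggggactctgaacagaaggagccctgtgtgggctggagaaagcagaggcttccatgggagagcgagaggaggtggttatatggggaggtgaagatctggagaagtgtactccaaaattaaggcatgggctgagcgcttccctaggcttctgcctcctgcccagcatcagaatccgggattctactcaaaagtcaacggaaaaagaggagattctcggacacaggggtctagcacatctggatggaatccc

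Of the 8 small heat shock proteins, Hspb2, Hspb6, Hspb7 and Cryab fell past the cut-off in FLT-Surgery against FLT-Sham. The cut-off was a fold of at least 2 with an unadjusted limma p of at most 0.01. Hspb3 was at least 4.04-fold lower but missed the p limit, and Hspb8, Hspb9 and Hspb1 had smaller differences that did not pass. Among all members, 7 of 53 tested fell past that cut-off, beside 7.98% of all genes tested, and none rose, beside 0.287%. The median of the 8 small heat shock proteins, Hspb3 and Hspb7 included, was -2.87, against -0.55 for all genes. All 8 had a negative difference, but Hspb1 turned to 0.22 after median centring of the arrays. Members above background on no array numbered 32 in FLT-Surgery, 13 in FLT-Sham, 23 in G-Surgery and 20 in G-Sham. Detection over all genes also ran lowest in FLT-Surgery, with the shares given above. A member that entered the test through FLT-Sham alone, as Hspb3 and Hspb7 did, had to be lower in FLT-Surgery. The counts and medians of this comparison therefore describe only the members that passed the filter. No member had a Benjamini-Hochberg adjusted p at or under 0.05 in any of the 5 comparisons.

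Hspb6 (also called HSP20) binds actin-associated proteins in muscle. Its log2 ratio was 1.41, 3.98, 3.60 and 4.35 in G-Sham replicates 1, 3, 4 and 5, and 4.43, 5.32, 2.59 and 4.65 in FLT-Sham replicates 4, 6, 8 and 9. It was 1.25, 3.96, 3.25 and 2.94 in G-Surgery replicates 1, 3, 4 and 5, and 1.40, -0.23 and 0.64 in FLT-Surgery replicates 1, 3 and 5. Every FLT-Surgery array was below every FLT-Sham array, while FLT-Surgery replicate 1 was above G-Surgery replicate 1. The difference between FLT-Surgery and FLT-Sham was -3.64 ± 0.71 (SE), which is 12.5-fold, with a limma adjusted p = 0.121. On the slides that held both groups it was -4.22 on slide 1 and -2.79 on slide 2, where slide 1 had only 1 FLT-Sham array and slide 2 only 1 FLT-Surgery array, as for all within-slide values of this comparison.

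Hspb2, first described as a partner of the myotonic dystrophy kinase, lies beside Cryab with overlapping annotated spans. In the same order of replicates, used from here on, its log2 ratio was 2.34, 3.87, 3.71 and 4.79 in G-Sham and 4.96, 5.11, 2.43 and 4.24 in FLT-Sham. It was 1.91, 4.10, 3.14 and 3.01 in G-Surgery and 2.12, 0.14 and 0.28 in FLT-Surgery. Replicates 3 and 5 of FLT-Surgery were below all other arrays, and replicate 1 lay between the lowest G-Surgery and the lowest FLT-Sham array. The difference from FLT-Sham was -3.34 ± 0.79 (10.1-fold, limma adjusted p = 0.136), with -4.75 and -1.80 within slides 1 and 2.

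Cryab encodes αB-crystallin, a desmin-binding chaperone of lens and striated muscle. The log2 ratio of Cryab was 3.01, 4.95, 4.36 and 5.06 in G-Sham, 5.30, 5.80, 3.92 and 5.35 in FLT-Sham, 2.27, 4.36, 3.85 and 3.67 in G-Surgery and 3.51, 2.14 and 2.42 in FLT-Surgery. The FLT-Surgery arrays were below all FLT-Sham arrays and lay within the range of G-Surgery apart from replicate 3. The difference from FLT-Sham was -2.40 ± 0.57 (limma adjusted p = 0.136), with -3.02 and -1.52 within slides. A second Cryab probe, also above background on all 15 arrays, gave -1.01 (limma adjusted p = 0.227), lower as well but short of the p limit.

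Hspb7 and Hspb3 are muscle-rich small heat shock proteins whose reference channel was above background on no array, so their ratios rest on the sample channel. The log2 ratio of Hspb7 was 2.27, 4.53, 3.37 and 4.84 in G-Sham and 5.19, 7.40, 2.85 and 5.19 in FLT-Sham. It was 2.62, 5.63, 4.20 and 2.91 in G-Surgery and 0.46, -0.12 and 1.46 in FLT-Surgery, all 3 below every other array. Hspb7 was well above background on 3 arrays of each Sham group, on 2 of G-Surgery and on 0 of FLT-Surgery. From the sample channel, where the dim group was set at the lowest signal above background, Hspb7 was at least 4.75-fold lower in FLT-Surgery than in FLT-Sham (limma adjusted p = 0.135) and at least 1.90-fold lower than in G-Surgery, where too few arrays passed the filter for a test. The limma p comes from the fit of the log ratios and does not test these bounds. Without swapped dyes, such a bound may carry a dye effect.

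Hspb3 was above background on 2 G-Sham and 3 FLT-Sham arrays and on no array of either Surgery group. The log2 ratio of Hspb3 in FLT-Sham was 8.04, 8.84, 0 and 5.93, where the 0 of replicate 8 was set by the software. It was 0, 2.48, 3.23 and 4.35 in G-Sham. FLT-Sham and FLT-Surgery overlapped at 0, and the difference, at least 4.04-fold, missed the cut-off (limma adjusted p = 0.174). That p is from the log ratios and does not test the 4.04-fold bound.

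Hspb1 (HSP25), the most widely expressed small heat shock protein, had a log2 ratio of 3.24, 3.72, 3.16 and 3.65 in G-Sham, 3.16, 3.48, 3.56 and 3.64 in FLT-Sham, 2.54, 3.21, 3.26 and 3.26 in G-Surgery and 3.48, 2.92 and 3.18 in FLT-Surgery. The groups overlapped throughout, and only G-Surgery replicate 1 was below the rest. Its differences were 0.01 ± 0.30 for FLT-Sham against G-Sham, 0.12 ± 0.30 for FLT-Surgery against G-Surgery, -0.38 ± 0.27 for G-Surgery against G-Sham and -0.26 ± 0.34 for FLT-Surgery against FLT-Sham. Hspb8, which works with Bag3 in chaperone-assisted autophagy of muscle, gave -0.87 ± 0.66 in the last comparison, and Hspb9, known from testis, gave -0.71 ± 0.64.

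**Figure D1:**
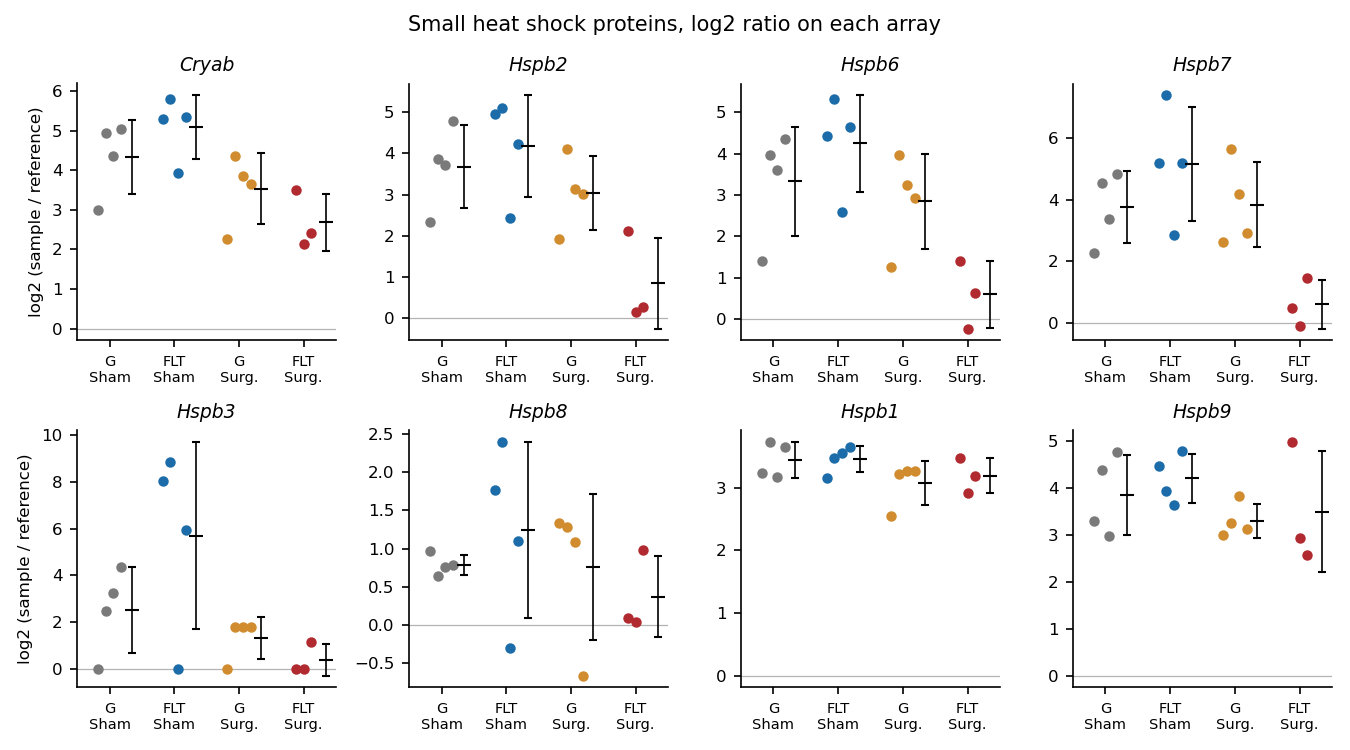
Log2 ratio of sample over the reference pool for the 8 small heat shock proteins, 1 point per array, with the mean and SD of each group as bars and a y axis of its own in each panel. Hspb2, Hspb6 and Hspb7 are lowest in FLT-Surgery, with means of 0.85, 0.60 and 0.60, while the Hspb1 means lie between 3.07 and 3.46.

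Spaceflight in operated mice gave no small heat shock protein past the cut-off. Of 44 members tested in FLT-Surgery against G-Surgery, 1 fell, beside 2.63% of all genes, and none rose, beside 0.637%. That gene was Dnaja4, described below. Hspb2 (-2.20 ± 0.65, limma adjusted p = 0.28) and Hspb6 (-2.25 ± 0.68, limma adjusted p = 0.28) stood just outside the cut-off, with unadjusted p just over its limit. Cryab differed by -0.85 ± 0.56 (limma adjusted p = 0.446), and its second probe by -0.01.

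Spaceflight without surgery moved no member past the cut-off in either direction among 54 tested, beside 1.83% of all genes higher and 0.136% lower. The 8 small heat shock proteins all had positive differences, with a median of 0.63 against 0.38 for all genes, but Hspb1 was at 0.01 and turned negative in 3 of 4 other scalings. Among members with positive differences the smallest p belonged to Hspa12b (1.92 ± 0.82, limma adjusted p = 0.514), an HSP70 relative of endothelial cells, and Dnajc7 (0.85 ± 0.38, limma adjusted p = 0.514), a cochaperone of HSP70 and HSP90. Among those with negative differences it belonged to Dnajc24 (-0.93 ± 0.31, limma adjusted p = 0.493), which serves diphthamide synthesis, and Hspa5 (-0.55 ± 0.34, limma adjusted p = 0.537). FLT-Sham replicate 8 stood apart, and without it 8 members passed the cut-off in this comparison, beside 11.5% of all genes.

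Surgery on the ground likewise moved none of 48 members past the cut-off, beside 2.68% of all genes higher and 0.452% lower. The small heat shock proteins had a median of -0.49 against 0.17 for all genes, and 6 of 7 tested were negative, while Hspb7, at 0.09, turned negative in all 4 other scalings. The smallest p belonged to Dnajb8 (-2.64 ± 0.81, limma adjusted p = 0.352), a J protein known from testis. The log2 ratio of Dnajb8 was 4.27, 5.33, 5.38 and 4.30 in G-Sham against 3.98, 0.79, 0.55 and 3.40 in G-Surgery, where it was above background on 2 of 4 arrays. It passed the cut-off under 6 alternative settings, and in the values given here its unadjusted p lay just over the limit. By p, though not by size, positive differences were led by the endoplasmic reticulum J proteins Dnajc10 (0.85 ± 0.30, limma adjusted p = 0.365) and Dnajc1 (1.59 ± 0.68, limma adjusted p = 0.45).

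Muscle markers moved with these small heat shock proteins. In FLT-Surgery against FLT-Sham, 4 of 15 skeletal muscle markers and 6 of 7 slow-twitch markers fell past the cut-off, beside 7.98% of all genes. Their median differences were -2.53 and -4.42. In FLT-Surgery against G-Surgery 1 of 13 and 3 of 4 tested fell past it, beside 2.63% of all genes. The medians there were -1.70 and -4.50. The summed Cy5 signal of the slow-twitch markers was 41730 to 283100 in G-Sham, 52430 to 590500 in FLT-Sham, 27720 to 332600 in G-Surgery and 5260 to 13220 in FLT-Surgery. Of other cell types, 5 of 7 tested adipocyte markers and 4 of 5 tested erythroid markers also fell in FLT-Surgery against FLT-Sham, with medians of -4.17 and -4.75. So did 3 of 9 neutrophil markers (median -2.53) and 2 of 8 osteoblast and osteocyte markers (median -0.38). In FLT-Sham against G-Sham the median was 0.34 for skeletal muscle and 1.05 for slow-twitch markers, against 0.38 for all genes. There the adipocyte, erythroid, neutrophil, and osteoblast and osteocyte markers had medians of 2.71, 2.21, 1.79 and 0.86. The part of these cell types in the chaperone differences was not tested.

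Across the 15 arrays, the log2 ratio of Hspb2 had a Pearson r of 0.97 and a Spearman rho of 0.97 with the mean of the 15 skeletal muscle genes. The r was 0.96 for Hspb6, 0.95 for Dnaja4, 0.95 for Cryab and 0.83 for Hspb7. With group means removed it was 0.95 for Hspb2, 0.91 for Hspb6, 0.94 for Cryab and 0.63 for Hspb7, so most of these genes followed the muscle genes within groups too. Members outside the small heat shock proteins had values as high, with 0.94 for Dnaja2, 0.92 for Dnaja3, 0.91 for Dnajc15 and 0.91 for Hspa2. The r was 0.57 for Hspb1 (0.72 with group means and FLT-Sham replicate 8 removed), 0.36 for Hspb8, 0.10 for Hspa8 and -0.69 for Hsp90ab1. Both axes come from the same arrays and share each array's scaling, and these values are a description.

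**Figure D2:**
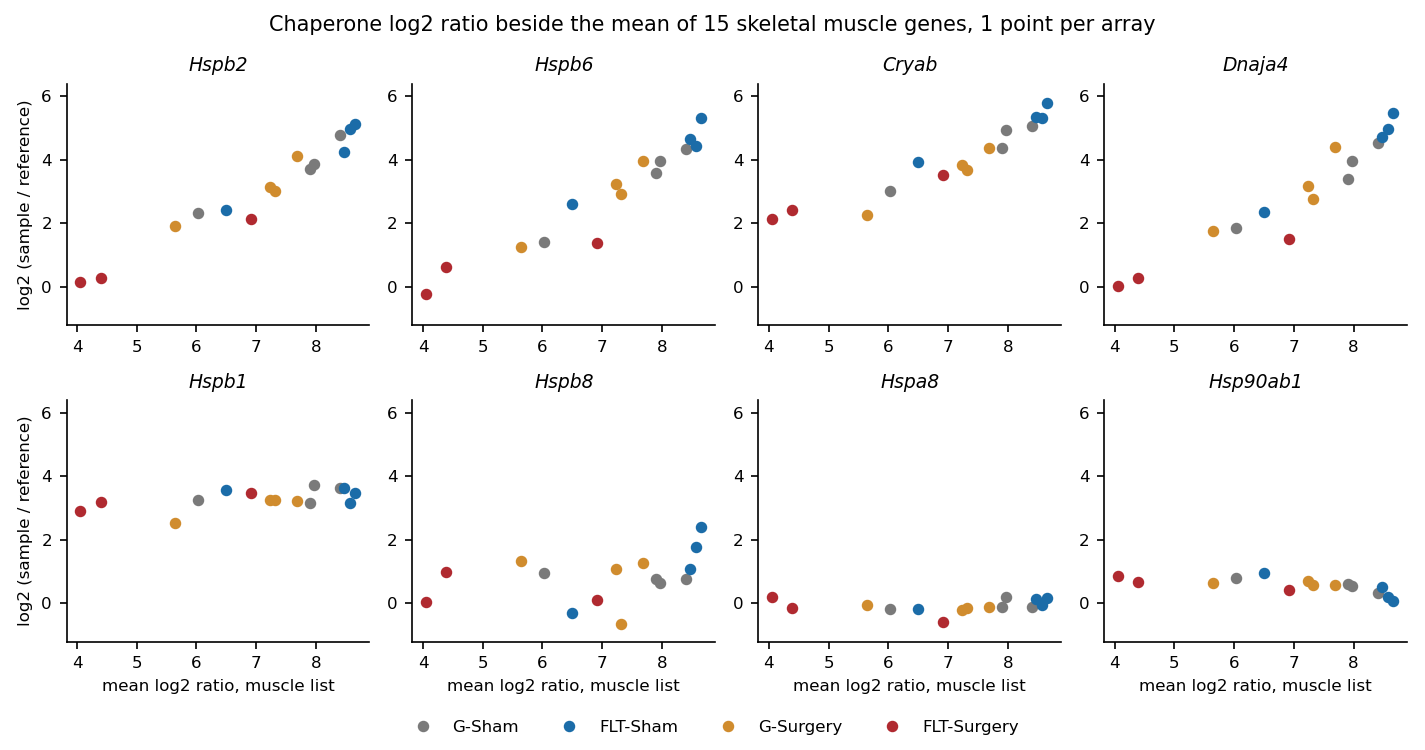
Log2 ratio of 8 chaperones (y axis of each panel) against the mean log2 ratio of 15 skeletal muscle genes (x axis), 1 point per array, coloured by group. Hspb2, Hspb6, Cryab and Dnaja4 rise along the x axis within and between groups, while Hspa8 and Hspb1 stay nearly level.

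Inducible cytosolic chaperones, the usual readout of a heat shock response, had no member past the cut-off in any of the 5 comparisons, with 3 tested. Of all genes, 7.98% or less passed in any comparison and direction, so a count of none among 3 is near that share. Their medians were 0.25 for FLT-Sham against G-Sham, -0.45 for FLT-Surgery against G-Surgery, 0.20 for G-Surgery against G-Sham and -0.17 for FLT-Surgery against FLT-Sham. Dnajb1 (HSP40) had a log2 ratio of -2.35, -1.90, -1.43 and -1.95 in G-Sham, -1.62, -1.69, -1.89 and -1.41 in FLT-Sham, -1.58, -1.85, -1.73 and -1.66 in G-Surgery and -1.67, -1.52 and -2.27 in FLT-Surgery. All 4 groups of Dnajb1 overlapped, and its differences had sizes of at most 0.25 with SEs between 0.26 and 0.35. Hsp90aa1, the inducible HSP90, read -1.95, -0.81, -1.77 and -1.84 in G-Sham and -1.83, -1.16 and -1.81 in FLT-Surgery, again overlapping.

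Hsph1 (HSP110), an exchange factor of HSP70, gave the largest difference of the class. Its log2 ratio was 0.62, 0.67, 0.45 and 1.10 in FLT-Sham and 0.69, -0.97 and -0.79 in FLT-Surgery. FLT-Surgery replicate 1 lay among the FLT-Sham arrays, the other 2 below them, and the difference of -1.06 ± 0.48 missed the cut-off (limma adjusted p = 0.221). With the muscle genes Hsph1 had an r of 0.88, which dropped to 0.68 without the 2 arrays farthest from the median.

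Constitutive cytosolic HSP70, HSP90 and HSP110 genes had no member past the cut-off among 6 to 8 tested per comparison. Of all genes, at most 7.98% passed in either direction. Hspa8, the housekeeping HSP70 that uncoats clathrin, had a log2 ratio of -0.16, 0.22, -0.12 and -0.10 in G-Sham, -0.04, 0.18, -0.18 and 0.13 in FLT-Sham, -0.04, -0.11, -0.19 and -0.14 in G-Surgery and -0.59, 0.19 and -0.13 in FLT-Surgery. Its differences were between -0.20 and 0.06, with SEs of 0.21 to 0.35. Hsp90ab1, the constitutive HSP90, read 0.80, 0.55, 0.63 and 0.33 in G-Sham, 0.21, 0.08, 0.97 and 0.53 in FLT-Sham, 0.65, 0.58, 0.72 and 0.58 in G-Surgery and 0.41, 0.87 and 0.67 in FLT-Surgery. These levels overlapped in all groups, and the differences lay between -0.13 ± 0.32 and 0.20 ± 0.37. Hspa4, an HSP110-type exchange factor, differed by -0.13 to 0.04. Hspa2, a testis- and muscle-expressed HSP70, stood lower at -2.52 ± 0.92 in FLT-Surgery against FLT-Sham (limma adjusted p = 0.174), with overlapping groups.

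**Figure D3:**
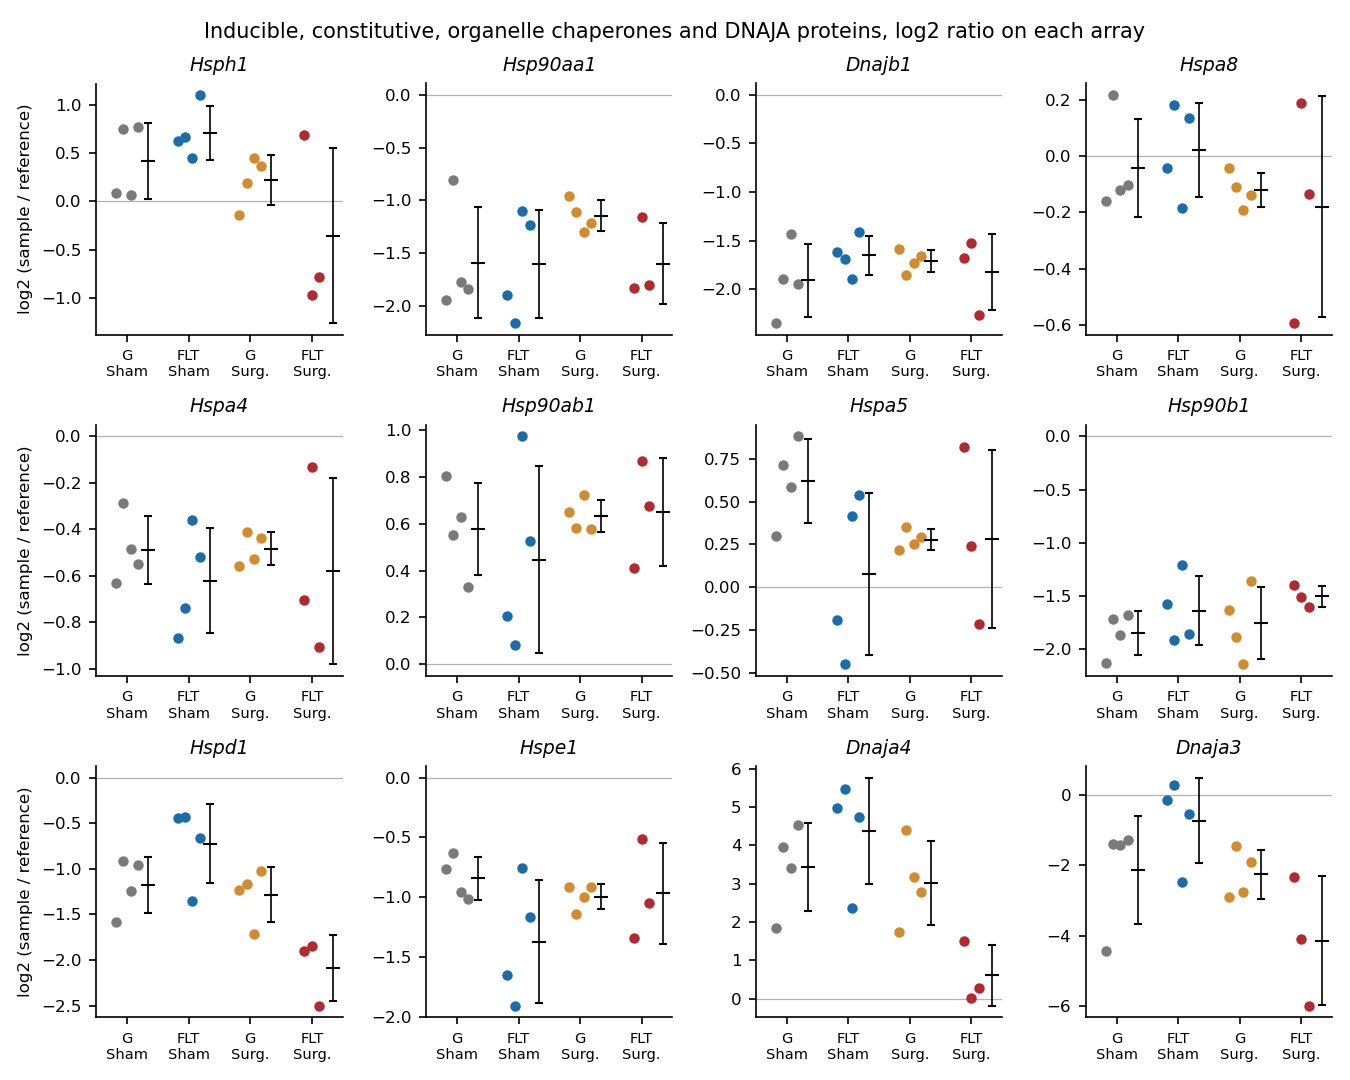
Log2 ratio of sample over the reference pool for 12 inducible, constitutive, endoplasmic reticulum and mitochondrial chaperones and Dnaja J proteins, 1 point per array, with mean and SD per group and a y axis of its own in each panel. Hspd1 and Dnaja4 are lowest in FLT-Surgery without overlap with the other groups, whereas Hspa8 and Hsp90ab1 overlap in all 4 groups.

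Dnaja J proteins are HSP40-type cochaperones with a zinc finger. Dnaja4 had a log2 ratio of 1.85, 3.95, 3.40 and 4.52 in G-Sham and 4.96, 5.47, 2.36 and 4.73 in FLT-Sham. It was 1.74, 4.39, 3.16 and 2.78 in G-Surgery and 1.51, 0.03 and 0.29 in FLT-Surgery. The 3 FLT-Surgery arrays were below all 12 others, and replicate 1 was the nearest to them. Dnaja4 was well above background on some but not all FLT-Surgery arrays, so its size there rests partly on signals near background. Dnaja4 fell by 3.77 ± 0.79 on the log2 scale against FLT-Sham (limma adjusted p = 0.130) and fell by 2.41 ± 0.65 against G-Surgery (limma adjusted p = 0.280). Within slides 1 and 2 the second difference was -2.40 and -2.88, the latter between 1 array of each group. This call was lost with a second loess (-1.29), normexp and loess (-0.93, under the fold limit), median centring (-2.08), Cy5 alone (-1.78), no filter on dim probes and the replicate block, and without any 1 of G-Surgery replicates 4 and 5 and FLT-Surgery replicates 3 and 5. Its other probe was above background on no array.

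The interaction, which is the spaceflight difference under Surgery less that under Sham, was -3.36 ± 1.11 for Dnaja4 (limma adjusted p = 0.184). It was -1.73 with a second loess and -1.88 with normexp and loess, and the call was lost in both, with median centring, Cy5 alone, no filter on dim probes and the slide as a block, and in 11 of 15 fits with 1 array left out. Hspb7 passed as well, but no size is given, because no FLT-Surgery array and no reference channel was above background, and it did not pass with normexp and loess, Cy5 alone or the slide as a block. These were the 2 of 54 members lower past the cut-off, beside 6.61% of all genes, and none was higher, beside 0.225%. Hspb2, Hspb6 and Cryab had values of -2.70, -3.16 and -1.60 and did not pass. The interaction uses the same arrays as the comparisons above.

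Dnaja1 and Dnaja2, the cytosolic relatives, stood lower in FLT-Surgery than in FLT-Sham at -1.90 ± 0.68 (limma adjusted p = 0.17) and -2.11 ± 0.66 (limma adjusted p = 0.155), short of the cut-off. A dimmer Dnaja2 probe, above background on 7 arrays, gave -3.59 (limma adjusted p = 0.144). Both genes were above background on 1 of the 3 FLT-Surgery arrays. The Dnaja1 difference shrank to -0.05 with normexp background correction followed by loess.

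Mitochondrial chaperones had 2 of 7 tested members past the cut-off and lower in FLT-Surgery than in FLT-Sham, Hspd1 and Dnaja3, beside 7.98% of all genes. In sign, 5 of the 7 were lower, and the median was -1.36 against -0.55 for all genes. Hspd1 encodes HSP60, which forms the folding chamber of the matrix, and Hspe1 its lid HSP10. The log2 ratio of Hspd1 was -1.58, -0.92, -1.24 and -0.96 in G-Sham, -0.45, -0.43, -1.36 and -0.67 in FLT-Sham, -1.23, -1.17, -1.71 and -1.02 in G-Surgery and -1.90, -1.85 and -2.50 in FLT-Surgery. The FLT-Surgery arrays were below all 12 others. Against FLT-Sham the difference was -1.36 ± 0.39 (2.56-fold, limma adjusted p = 0.149), with -1.73 and -1.08 within slides, and against G-Surgery it was -0.80 ± 0.30 (limma adjusted p = 0.286). With a second loess, median centring, and normexp and loess the first became -0.997, -0.87 and -0.67, under the fold limit, and the call was also lost with Cy5 alone and the slide as a block.

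Hspe1, which shares its promoter region with Hspd1, did not follow it. Its log2 ratio was -0.76, -0.63, -0.96 and -1.02 in G-Sham, -1.65, -1.91, -0.76 and -1.17 in FLT-Sham, -0.92, -1.14, -1.0 and -0.92 in G-Surgery and -1.34, -0.51 and -1.05 in FLT-Surgery. The FLT-Surgery arrays lay among the others, and the difference from FLT-Sham was 0.40 ± 0.42 (limma adjusted p = 0.525). The Hspd1 and Hspe1 differences were not tested against each other.

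Dnaja3, the mitochondrial J protein, had a log2 ratio of -4.44, -1.39, -1.42 and -1.30 in G-Sham, -0.17, 0.27, -2.49 and -0.56 in FLT-Sham, -2.90, -1.47, -2.76 and -1.90 in G-Surgery and -2.34, -4.09 and -5.98 in FLT-Surgery. The lowest FLT-Sham array, replicate 8, was below the highest FLT-Surgery array. The difference was -3.40 ± 0.96 (limma adjusted p = 0.146), and it shrank to -0.59 with normexp background correction and loess. The call was lost in that setting, and also with a second loess, no filter on dim probes and the slide as a block. Dnaja3 was above background on 1 of 3 FLT-Surgery arrays.

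Of the other mitochondrial members, Hspa9 (mortalin, the matrix HSP70) gave -1.61 ± 0.63 against FLT-Sham (limma adjusted p = 0.185) and turned to 0.12 with normexp and loess. Dnajc15 gave -1.74 ± 0.62 (limma adjusted p = 0.17). Dnajc19, a J protein of the import motor, stood higher at 0.99 ± 0.57 against FLT-Sham (limma adjusted p = 0.288) and at 0.82 ± 0.28 against G-Surgery (limma adjusted p = 0.28). Its 3 probes disagreed, since another gave -0.71 against G-Surgery (limma adjusted p = 0.28).

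Endoplasmic reticulum chaperones had no member past the cut-off in any comparison, with 6 to 8 tested, beside at most 7.98% of all genes in either direction. Hspa5 (BiP), the main HSP70 of the reticulum, had a log2 ratio of 0.30, 0.72, 0.59 and 0.88 in G-Sham, -0.19, -0.45, 0.42 and 0.54 in FLT-Sham, 0.22, 0.35, 0.25 and 0.29 in G-Surgery and 0.82, 0.24 and -0.22 in FLT-Surgery. Its groups overlapped, with differences from -0.55 ± 0.34 to 0.21 ± 0.43. Hsp90b1 (GRP94) differed by 0.09 to 0.25, with SEs of 0.26 to 0.34. In FLT-Surgery against FLT-Sham the class had a median of 0.04, where all genes had -0.55.

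The remaining classes of other Dnajb, other Dnajc and other Hspb symbols had no member past the cut-off in any comparison. The share of all genes was at most 7.98% in either direction. Of the other Dnajb genes, Dnajb6, a suppressor of aggregation that acts at the muscle Z-disc, gave -1.29 ± 0.50 in FLT-Surgery against FLT-Sham (limma adjusted p = 0.182). Of the other Dnajc genes, Dnajc5, the cysteine string protein of secretory vesicles, gave 0.88 ± 0.34 in FLT-Surgery against G-Surgery (limma adjusted p = 0.288), and Dnajc14 gave 0.85 ± 0.45 in FLT-Surgery against FLT-Sham (limma adjusted p = 0.261). In the latter comparison 13 of 53 members had positive and 40 negative differences, with a median of -0.81. The positive share was 24.5%, beside 33.5% of all genes tested, whose median was -0.55.

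**Figure D4:**
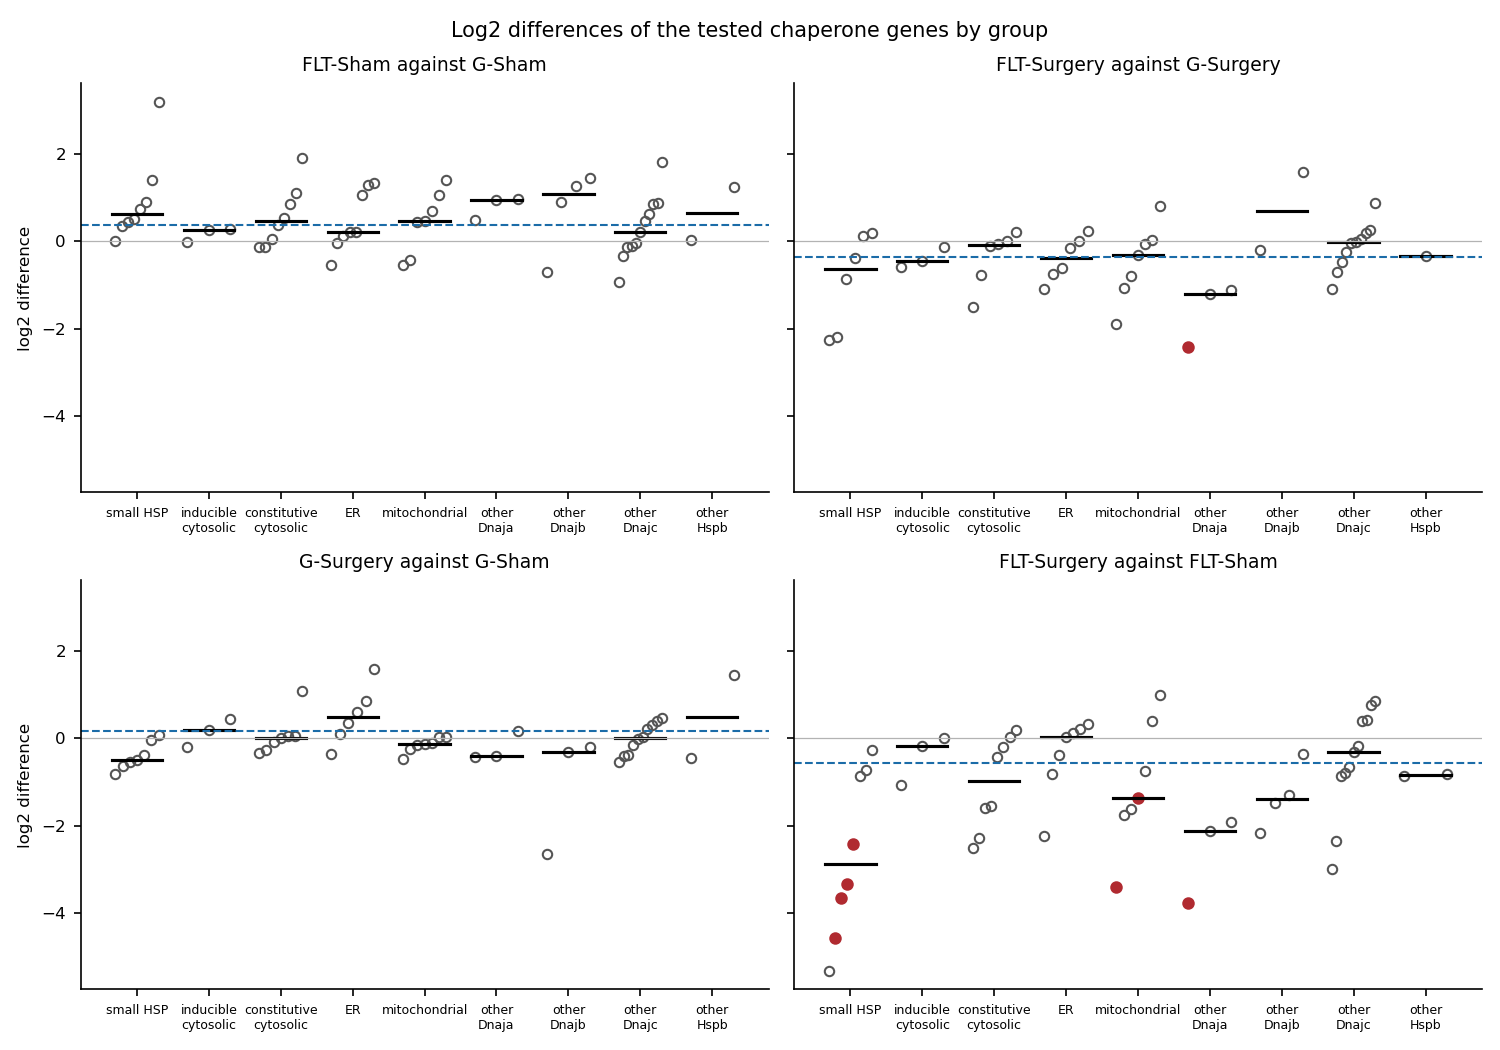
Log2 difference of each tested member (points) in 4 comparisons, by class of chaperone, with filled red points past the cut-off, a black bar at the class median and a dashed blue line at the median of all tested genes. The 7 red points of FLT-Surgery against FLT-Sham are small heat shock proteins, Dnaja4, Dnaja3 and Hspd1, and all lie below 0.

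Genes that work with these chaperones, but do not carry their names, were counted for comparison. Among 18 genes for heat shock factors and cytosolic co-chaperones, none passed the cut-off in FLT-Sham against G-Sham, FLT-Surgery against G-Surgery or G-Surgery against G-Sham. In FLT-Surgery against FLT-Sham 1 of 17 tested fell past the cut-off, beside 7.98% of all genes. This was Unc45b, the myosin-folding partner of HSP90 in striated muscle (-3.80 ± 0.995, limma adjusted p = 0.144). Hsf1 itself differed by -0.49 to 0.14 in the 4 comparisons. Bag3, the exchange factor that pairs with Hspb8, gave -3.77 ± 1.18 (limma adjusted p = 0.155) in FLT-Surgery against FLT-Sham. In the interaction 2 of 17 tested were lower past the cut-off, beside 6.61% of all genes. These were Hsf2 (-4.35 ± 1.41, limma adjusted p = 0.18) and Bag5 (-1.50 ± 0.43, limma adjusted p = 0.172). None of the 8 TRiC chaperonin subunits, which fold actin and tubulin, passed in any comparison, beside at most 7.98% of all genes in either direction.

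Of 16 genes of the endoplasmic reticulum's unfolded protein response and folding, 13 were tested in FLT-Surgery against G-Surgery. Of these, 2 fell past the cut-off, beside 2.63% of all genes. These were Serpinh1 (-1.83 ± 0.48, limma adjusted p = 0.280), the collagen chaperone HSP47, and Herpud1 (-1.98 ± 0.45, limma adjusted p = 0.258), a component of protein degradation from the reticulum. Serpinh1 rose in G-Surgery against G-Sham (1.75 ± 0.36, limma adjusted p = 0.208), a comparison that shares the G-Surgery arrays. It was the 1 of 13 past the cut-off there, beside 2.68% of all genes. Chondrocyte markers stood the same way, with 1 of 3 tested past the cut-off in G-Surgery against G-Sham (median 2.24) and 1 of 2 in FLT-Surgery against G-Surgery (median -3.67), and their part was not tested. Serpinh1 and Herpud1 were also lower in the interaction, by -2.33 ± 0.62 and -2.88 ± 0.93. They were the 2 of 13 tested past the cut-off there, beside 6.61% of all genes. No gene of this list passed in FLT-Surgery against FLT-Sham or in FLT-Sham against G-Sham.

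The count of 7 members in FLT-Surgery against FLT-Sham rested on few arrays. It was 2 (Dnaja4 and Hspb6) without FLT-Surgery replicate 3, 3 without FLT-Surgery replicate 5, 4 without any 1 of FLT-Sham replicates 4, 6 and 9, and 22 without FLT-Sham replicate 8, where 29.8% of all genes passed. With the slide as a block it was 3, namely Dnaja4, Hspb6 and Hspb7. FLT-Sham replicate 8 had the fewest detected members of its group, 39, and FLT-Surgery replicate 1 the most of its group, 39.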

How the data were processed

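RNA from 15 mice was hybridised to 2-colour Agilent mouse arrays, the sample in Cy5. Per the labels, the authors used Agilent Feature Extraction 12.0. They deposited each spot's intensity per channel, corrected for background and dye by the scanner software, together with the log10 ratio of Cy5 over Cy3. The deposited series table holds the same log10 ratios, rounded. The genome build is not given in the sources used here.

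The deposited log10 ratio was multiplied to the log2 scale and used with no further loess, since the software had already applied linear and LOWESS dye normalization. Spots marked as outliers were dropped, and replicate spots of 1 probe were averaged. Of 55681 probes, 28026 were matched to 1 gene symbol by accession through RefSeq tables. For each comparison limma 3.58.1 (R 4.3.3) was fitted to the arrays of its groups alone, over probes whose Cy5 was well above background on at least 3 of them. The interaction used all 15 arrays. The cut-off was a fold of at least 2 together with an unadjusted limma p not above 0.01. The p printed are adjusted by Benjamini-Hochberg over all probes tested. Precision is limited by the 3 or 4 mice per group. The paper also describes the bone RNA as of sub-optimal quality and proposes that a freeze-thaw cycle lowered it further. Slide 1 held 7 arrays, slide 2 held 7 and slide 3 held 1.

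The members and lists were chosen with earlier results of these data known. Named genes were those past the cut-off (up to 5 per comparison and direction, or else up to 2 with the smallest p) and a list of central chaperones, while Hspa2, Hspb9, Dnaja2, Dnajb6, Dnajc15, and the co-chaperone and unfolded protein response genes were picked for naming after their values were seen. Promoter sequences are from RefSeq for GRCm38.p6. The fit was tested on simulated data. The alternatives were loess, median centring, normexp (offset 50, on median signals), Cy5 alone, the series table, filters, the mean over probes, a fit of all arrays, slide and replicate blocks, array weights and each array left out. Setting exact 0 ratios to missing was added after seeing the data.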

Additional observations from a re-analysis of the deposited data

Results flagged for a closer look

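In 9 of the 96 combinations of a named member and a group of 4 arrays, 1 array stood apart from the other 3 by Dixon's criterion, and chance gives about 1 in 20, or 4.8. G-Sham replicate 1 was low for Dnaja1, at a log2 ratio of -4.85 against -2.86 to -2.52 on the others, and for Dnaja3, at -4.44 against -1.42 to -1.30. FLT-Sham replicate 8 was low for Dnaja1, at -3.31 against -1.99 to -1.85. G-Sham replicate 3 was high for Hsp90aa1, at -0.81 against -1.95 to -1.77, and for Hspa8, at 0.22 against -0.16 to -0.10. G-Sham replicate 4 was low for Dnajc5, at 2.76 against 2.94 to 2.96. G-Surgery replicate 1 was low for Hspb1, at 2.54 against 3.21 to 3.26, and for Hspb3, at 0.0 against 1.77 to 1.78, where the 0 was set by the software and no array of the group was above background. G-Surgery replicate 5 was low for Hspb8, at -0.66 against 1.09 to 1.34.

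The spaceflight difference under Surgery less that under Sham passed the cut-off for Dnaja4, at -3.36 (limma adjusted p = 0.184). That call was lost with loess (-1.73), normexp and loess (-1.88), median centring, Cy5 alone, no filter on dim probes and the slide as a block. It also passed for Hspb7, with a fitted value of -4.65 that is no measured size, since no FLT-Surgery array and no reference channel was above background, and that was -1.21 with normexp and loess.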

How the results depend on the processing

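Over 13 other settings, the 10 combinations of a member and a comparison past the cut-off kept their sign in all 113 values and passed in 86. Of 1829 values of named members, 114 had the other sign. The count of members past the cut-off moved as follows, and the cause was not tested. In FLT-Sham against G-Sham (0) it was 1 with median centring (Dnajc24), 12 with array weights (25.1% of all genes) and 1 with exact 0 ratios set to missing (Hspb3), and 0 to 8 with 1 array left out. In FLT-Surgery against G-Surgery (1) it was 2 with median centring or Cy5 alone (Dnajc19 and Dnajc5, higher), normexp and loess (Dnajc5, higher, and Hspb2), no filter on dim probes (Dnajc3 and Hspb7) or both channels above background (Hspb2 and Hspb6), and 1 with loess (Dnajc19, higher), none of which called Dnaja4. It was 6 with the slide as a block (9.59% of all genes), 7 with array weights (15.3%), and 0 to 9 with 1 array left out, with 9 without FLT-Surgery replicate 1 (16.5%). In G-Surgery against G-Sham (0) it was 1 (Dnajb8) with loess, median centring, normexp and loess, Cy5 alone, the series table or array weights, and 0 to 1 with 1 array left out. In FLT-Surgery against FLT-Sham (7) it was 4 with normexp and loess or both channels above background, 3 with slide blocked, 13 in a fit of all 15 arrays (16.5% of all genes), 30 with array weights (51.2%), and 2 to 22 with 1 array left out, with 22 without FLT-Sham replicate 8 (29.8%). Members with an adjusted p at or under 0.05 numbered 6 in the fit of all 15 arrays, 36 with array weights, 24 without FLT-Sham replicate 8 and 4 without FLT-Surgery replicate 1 in this comparison. Array weights gave 20, 3 and 26 such members in FLT-Sham against G-Sham, FLT-Surgery against G-Surgery and the interaction, and there were 6 without FLT-Surgery replicate 1 in the second and 13 without FLT-Sham replicate 8 in the third. For the interaction (2) it was 0 with normexp and loess, Cy5 alone or the slide as a block, 21 with array weights (35.3% of all genes), and 0 to 16 with 1 array left out, with 16 without FLT-Sham replicate 8 (21.5%), 7 without FLT-Surgery replicate 1 and 0 without FLT-Surgery replicate 3. With loess and median centring Dnajc24, higher, took the place of Dnaja4.

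Replicate numbers were shared by some groups. Deviations of same-numbered arrays correlated at -0.36, -0.19 and 0.24 (FLT-Surgery and G-Surgery) and 0.35, -0.05, -0.07 and -0.16 (G-Surgery and G-Sham), so the arrays share only a number. With the replicate block the count of members was 0 in both comparisons, and 92 and 236 of all genes passed in place of 277 and 284. The dim Cy5 channel, with a median signal of 1.41 to 4.31 above background against 38.8 to 82.7 for Cy3, limits the members near background.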
